A study of Mus musculus with 653 samples.

Results

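The genes *Fga*, *Fgb* and *Fgg*, which encode the Aα, Bβ and γ chains of fibrinogen, were read in single cells of the embryonic mouse liver. They are 3 of the 54195 genes in the count table, of which 28292 had at least 1 read. They were chosen for their level in *Afp*-positive cells of these same data, so their levels by stage, by sort and between *Afp*-positive and *Afp*-negative cells are given as a description and without a test. The cells came from embryos of male Lgr5-EGFP-IRES-creERT2 mice, kept on a C57BL/6 background, that were mated with MF1 females, and all 4 groups share this cross. In this line GFP is knocked into the *Lgr5* locus, so that GFP reports the activity of that locus and is a stable protein that can outlast the transcript. Cells were sorted as Liv2+/CD31-/CD45-, referred to as bulk, or as Liv2+/CD31-/CD45-/Lgr5-GFP+, and each was sequenced with the Smart-seq2 protocol. Liv2 is a surface antigen of liver progenitors, CD31 marks endothelium and CD45 marks blood cells. The library pools 1 to 5 held 42, 41, 41, 42 and 37 bulk cells and 45, 47, 40, 41 and 38 Lgr5-GFP+ cells of E10.5. Of E13.5 they held 34, 34, 33, 34 and 24 bulk cells and 13, 27, 19, 14 and 7 Lgr5-GFP+ cells. More than 10 reads of *Afp* were found in 66 cells, referred to as *Afp*-positive, and 587 cells were *Afp*-negative. The study's methods speak of sorts and biological replicates, but no label ties a cell to one, or to an animal or a litter, so that a group counts as a single sample here and no p-value is given.

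Fibrinogen is the soluble plasma protein that thrombin turns into fibrin, the mesh of a blood clot. Each molecule holds 2 copies of the Aα, Bβ and γ chains, which are folded, joined by disulphide bonds in the endoplasmic reticulum and secreted, in the adult almost entirely by hepatocytes. The 3 genes lie side by side in mammalian genomes. Their transcription in liver cells is known to use C/EBP factors, and it rises in the acute phase response under interleukin 6. In the embryo the chains mark cells that have begun to make the plasma proteins of the hepatocyte lineage, as do alpha-fetoprotein (*Afp*) and albumin (*Alb*).

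On chromosome 3 of GRCm38, *Fgg* (ENSMUSG00000033860) spans 83007724 to 83015049 and *Fga* (ENSMUSG00000028001) spans 83026076 to 83033627, both on the plus strand. *Fgb* (ENSMUSG00000033831) spans 83040141 to 83049863 on the minus strand. *Fgg* and *Fga* are 11.03 kb apart, *Fga* and *Fgb* are 6.51 kb apart, and the whole span is 42.1 kb. The annotated exons cover 3010 bases for *Fga*, 3810 for *Fgb* and 2093 for *Fgg*. A lincRNA on the minus strand, *Gm30097*, overlaps *Fgg* and had 96 reads in all cells together. No source used here says that the counting used strand, so reads of the 2 genes over their shared bases cannot be told apart.

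The 250 bases before the start of each gene are shown because the 3 genes are neighbours with separate start sites. The sequences are those of RefSeq for GRCm38.p6, read in the direction of the gene, at chr3:83025903-83026152 (plus strand) for *Fga*, chr3:83049864-83050113 (minus strand) for *Fgb* and chr3:83007474-83007723 (plus strand) for *Fgg*. The RefSeq start of *Fga* lies inside the gene as given by GENCODE, so that the last 77 bases of its window are within that gene. Capitals mark the core of interleukin 6 response elements, CTGGGA.
Fga: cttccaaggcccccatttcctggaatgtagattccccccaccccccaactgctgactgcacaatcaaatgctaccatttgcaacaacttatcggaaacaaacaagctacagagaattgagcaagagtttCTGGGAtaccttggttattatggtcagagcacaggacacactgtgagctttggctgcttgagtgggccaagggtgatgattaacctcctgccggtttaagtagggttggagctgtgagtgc
Fgb: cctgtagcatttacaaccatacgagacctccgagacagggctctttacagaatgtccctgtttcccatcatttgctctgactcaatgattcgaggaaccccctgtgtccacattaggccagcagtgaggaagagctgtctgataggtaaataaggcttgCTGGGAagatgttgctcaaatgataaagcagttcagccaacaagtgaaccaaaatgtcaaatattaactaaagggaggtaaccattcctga
Fgg: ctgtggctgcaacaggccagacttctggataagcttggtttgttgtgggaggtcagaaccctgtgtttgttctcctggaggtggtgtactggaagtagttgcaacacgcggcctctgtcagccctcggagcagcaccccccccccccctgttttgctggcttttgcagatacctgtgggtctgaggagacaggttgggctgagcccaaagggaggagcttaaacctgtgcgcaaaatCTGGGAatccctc

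All 3 windows held CTGGGA once, at -121 to -116 in *Fga*, -91 to -86 in *Fgb* and -13 to -8 in *Fgg*, counted back from -1, the base before the start. On either strand, CTGGGA occurred in 27% of the 32851 windows of the same length. The C/EBP half-site ATTGC (23.1% of windows), TATAAA (12.4%) and CCAAT (33.8%) were searched in the same way and matched none of the 3 windows. Such a match describes the letters of the window and is not a measured binding site.

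Between 463347 and 2279700 reads fell on genes in a cell (median 1192740), and the groups' medians lay between 1092637 and 1260402. The 5 library pools, sequenced on 3 flow cells, each hold cells of all 4 groups and serve here as batches. No label says whether a pool is also a separate sort or litter, so technical and biological differences between pools cannot be told apart. Pool 2 stood apart and is treated separately wherever a result rests on it. Of the 66 *Afp*-positive cells, 34 came from pool 2, and 32 of these were E10.5 Lgr5-GFP+ cells. The share of *Afp*-positive cells among E10.5 Lgr5-GFP+ cells was 68.1% (32 of 47) in pool 2, 2.22% (1 of 45) in pool 1 and between 14.6% and 21.1% in pools 3, 4 and 5. All intervals below are 95% exact intervals (Clopper-Pearson for shares of cells, Poisson for summed reads), and they cover counting error only, since reads copied by PCR, or cells of a single sample, are not independent.

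Fibrinogen reads were concentrated in E10.5 cells and above all in the Lgr5-GFP+ sort. RPM is a gene's total of reads in a set of cells divided by that of all genes and multiplied by 1000000. Among E10.5 Lgr5-GFP+ cells, *Fgb* was at 841 RPM (837 to 844), *Fgg* at 164.2 (162.6 to 165.8) and *Fga* at 99.9 (98.7 to 101.1). In E10.5 bulk cells the levels were 70.8 (69.8 to 71.8), 14.5 (14.04 to 14.98) and 22.1 (21.6 to 22.7) in the same order of genes. At E13.5 all 3 were near 0. Lgr5-GFP+ cells of E13.5 had 1.75 RPM of *Fgb* (1.49 to 2.04), 0.341 of *Fgg* and 0.170 of *Fga*, and bulk cells had 0.118, 0.0395 and 1.09, the last of which came almost entirely from 1 cell with 131.9 RPM of *Fga*.

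**Figure D1:**
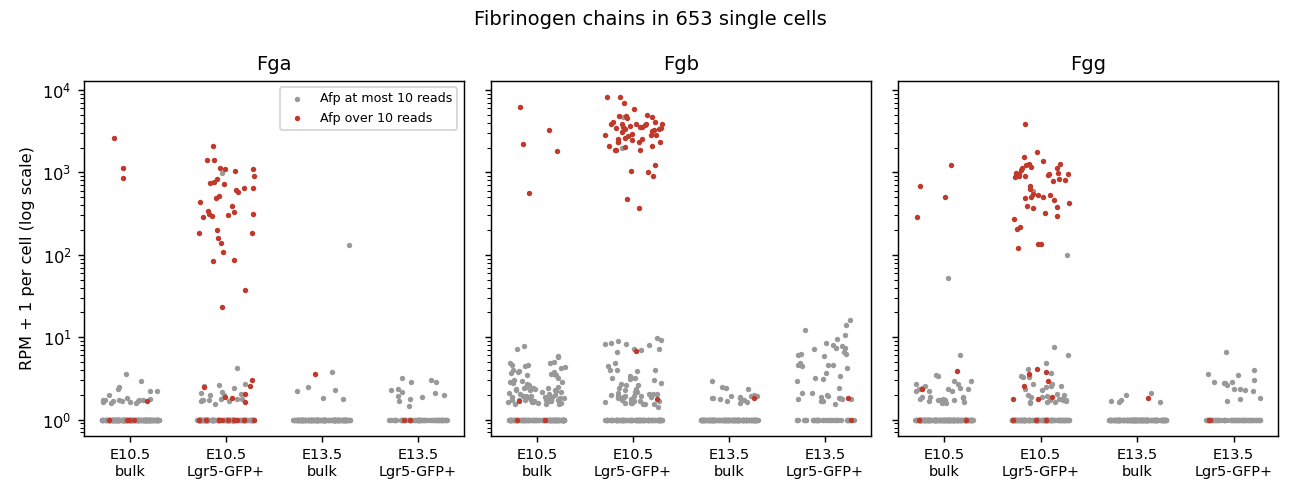
Level of *Fga*, *Fgb* and *Fgg* in each cell (RPM + 1, log scale) by stage and sort, with cells of more than 10 *Afp* reads in red and the others in grey. High levels are found in E10.5 cells, nearly all of them red, while E13.5 cells lie near the bottom, except for 1 grey bulk cell with 131.9 RPM of *Fga*.

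The order of the E10.5 sorts was the same in each pool, but the bulk values rest on few cells. More than 10 *Fgb* reads were found in 1, 2, 1, 0 and 1 bulk cells of pools 1 to 5. In Lgr5-GFP+ cells the numbers were 1, 34, 7, 6 and 8. In pools 1 to 5, *Fgb* in E10.5 Lgr5-GFP+ cells was at 53.6, 2352, 471, 491 and 639 RPM, and in bulk cells of the same pools at 15.9, 150.6, 112.8, 0.280 and 75.5 RPM. The Lgr5-GFP+ value was the higher one in each pool, but the ranges over pools overlapped, since pool 1 of the former lay below pools 2, 3 and 5 of the latter. For *Fga* and *Fgg* the same comparison also gave a higher value in Lgr5-GFP+ cells in each of the 5 pools, with 0 to 2 bulk cells above 10 reads in a pool. In both E13.5 groups every pool was below 5 RPM for each chain and below the E10.5 Lgr5-GFP+ cells of the same pool. Against E10.5 bulk cells of the same pool, E13.5 bulk cells were lower for each chain, with exceptions for *Fga*. In pool 4, *Fga* was higher at E13.5 (4.90 against 0.0374 RPM), and in pool 1 it was 0 at both stages. Summed RPM cannot tell fewer fibrinogen cells from less RNA per cell, and the counts of cells below separate the 2.

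As ratios, E10.5 Lgr5-GFP+ over bulk cells was 4.51 for *Fga*, 11.9 for *Fgb* and 11.3 for *Fgg*, and 14.2% of 14267 genes were at least 2-fold higher and 13.2% at least 2-fold lower in this comparison. Over E13.5 cells of the same sort, the ratios were 586, 481 and 482 in Lgr5-GFP+ cells, where 27.8% of 14612 genes were at least 2-fold higher at E10.5 and 22.3% at least 2-fold lower. For bulk cells the ratios were 20.3, 598 and 367, beside 35.8% of 13679 genes that were higher and 13.6% that were lower. The ratios between stages compare Liv2+ cells only. The paper proposes that cells on the hepatocyte path have lost the Liv2 epitope by E13.5 and so were not sequenced. Lower expression at E13.5 thus cannot be told apart from the absence of such cells from the sort. The members were chosen on these levels, so nothing is read from their counts.

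More than 10 reads of a chain, the threshold that the study's methods use for *Lgr5*, was taken as presence. By this measure *Fgb* was present in 56 E10.5 Lgr5-GFP+ cells (26.5%, 20.7 to 33.04), *Fgg* in 46 (21.8%, 16.4 to 27.99) and *Fga* in 38 (18.01%, 13.1 to 23.9). Pool 2 gave 34 of the cells with *Fgb* and 24 of those with *Fgg*, and without it the shares were 13.4% for *Fgb* (8.60 to 19.6), 13.4% for *Fgg* and 12.2% for *Fga* (7.61 to 18.2). Of the E10.5 bulk cells, 5 had *Fgb* (2.46%, 0.804 to 5.65), 5 had *Fgg* and 3 had *Fga* (1.48%, 0.306 to 4.26). All 3 chains were present in 31 E10.5 Lgr5-GFP+ cells (14.7%, 10.2 to 20.2) and in 3 E10.5 bulk cells (1.48%, 0.306 to 4.26). Among E13.5 cells, 0 bulk and 0 Lgr5-GFP+ cells had all 3, which allows shares of up to 1.89% and 3.75% at 3 counts (the exact intervals end at 2.29% and 4.51%). In pool 1 the all-chain share of E10.5 Lgr5-GFP+ cells was 2.22% (1 of 45), against 14.6% to 23.4% in the other pools.

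Each chain was either clearly present in a cell or nearly absent from it. In the 59 *Afp*-positive cells with at least 1 chain, *Fga* was present in 40 cells with 27 to 2495 reads (median 626) and absent in 19, which had 0 to 3 reads. Reads of *Fgb* numbered 464 to 12982 in 58 cells (median 3615) and 7 in the remaining one. *Fgg* had 99 to 4233 reads in 48 cells (median 840.5) and 0 to 4 in 11. Apart from that cell, no *Afp*-positive cell lay near the threshold of 10 reads for any chain, and a threshold of 100 reads gave shares within the intervals above.

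Of the 66 *Afp*-positive cells, 33 had all 3 chains (50%, 37.4 to 62.6), 21 had 2, 5 had 1 and 7 had none. *Fgb* was nearly always among them. The pairs were *Fgb* with *Fgg* in 14 cells and *Fga* with *Fgb* in 7, and *Fga* with *Fgg* in 0. A single chain was *Fgb* in 4 cells and *Fgg* in 1. *Fga* was never the only chain in an *Afp*-positive cell. Presence in *Afp*-positive cells was thus 87.9% for *Fgb* (77.5 to 94.6), 72.7% for *Fgg* (60.4 to 82.97) and 60.6% for *Fga* (47.8 to 72.4). The gap between *Fgb* and *Fga* came mainly from pool 2, with 33 and 18 of 34 cells, against 25 and 22 of 32 in the other pools.

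Partial sets came mainly from pool 2. Its 34 *Afp*-positive cells had all 3 chains in 11 cells (32.4%, 17.4 to 50.5), 2 chains in 19, 1 chain in 4 and none in 0. In the other pools together, 22 of 32 cells had all 3 (68.8%, 49.99 to 83.9), 2 had 2 chains, 1 had a single chain and 7 had none. In pools 3 and 4, each of the 8 and 6 cells with any chain had all 3. In pool 5 this held for 7 of 9 such cells, and the other 2 lacked *Fga* (0 reads in both).

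**Figure D2:**
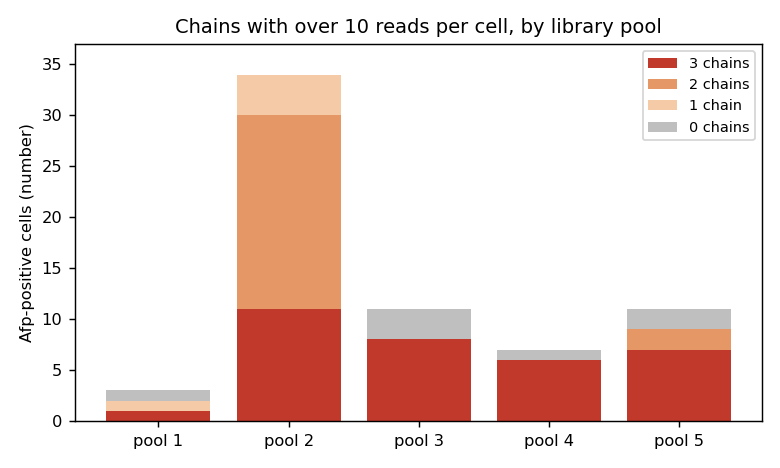
Number of *Afp*-positive cells (y axis) by library pool (x axis), divided by how many of *Fga*, *Fgb* and *Fgg* had more than 10 reads in the cell. Pool 2 holds 34 cells, of which 11 have all 3 chains and 19 have 2, while in pools 3 and 4 the cells have either all 3 or none.

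Gene detection also differed in pool 2. Its *Afp*-positive cells had a median of 4853 detected genes against 6831 in the other pools, at similar depth (medians of 1266882 and 1192644 reads). To set the chains beside other genes, *Afp*-positive cells with at least 3 of 12 hepatoblast markers were compared, 26 in pool 2 and 28 in the other pools. The marker list holds neither *Afp* nor the chains nor other plasma proteins, but the cells were still chosen by *Afp*. A further 67 *Afp*-negative cells with at least 3 of these markers were not part of the comparison. The share of cells with *Fga* went from 78.6% in the other pools to 53.8% in pool 2, a difference of -24.7 percentage points. *Fgg* went from 85.7% to 73.1% (-12.6 points) and *Fgb* from 89.3% to 100% (10.7 points). Over the 2292 genes for which this difference was taken, the median was -36.3 points. At least as low a difference as that of *Fga* was found for 68.5% of these genes. For *Fgg* this share was 80.5% and for *Fgb* 99.8%. These 2292 genes were taken with a limit of 75% on presence, and their median share in pool 2 was 50%. A limit met in the other pools alone makes a fall in pool 2 likely in advance. Nothing is therefore concluded from the place of the chains among these genes. In the fixed list of plasma proteins, *Ttr* and *Ambp* were present in 100% of both sets, *Vtn* in 92.9% and 76.9%, and *Apob* in 64.3% and 19.2%, with the other pools first. The summed level of *Fgb* was 3437 RPM in pool 2 and 2774 in the other pools.

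Pool 2 cells that lacked *Fga* or *Fgg* still held *Fgb*, except for 1 cell with *Fgg* alone. The 16 cells without *Fga* had a median of 2849 RPM of *Fgb* and 534 of *Fgg*, and the 18 cells with *Fga* had 3399 and 441. The 10 pool 2 cells without *Fgg* had a median of 1840.3 RPM of *Fgb* and 308 of *Fga*, against 3311 and 1.79 in the 24 cells with *Fgg*. Medians of detected genes were 4731 without and 5035 with *Fga*, and 4960.0 without and 4828 with *Fgg*. In pool 2 the counts for *Fga* and *Fgg* were 11 cells with both, 13 with *Fgg* but not *Fga*, 7 with *Fga* but not *Fgg* and 3 with neither.

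The 7 *Afp*-positive cells without any chain were the 3 *Afp*-positive cells of E13.5 (2 Lgr5-GFP+ and 1 bulk), 3 E10.5 bulk cells and 1 E10.5 Lgr5-GFP+ cell. They had 22 to 1093 *Afp* reads and at most 4 reads of any chain. In these cells the hepatoblast list had a median of 2 of 12 markers with more than 10 reads (1 to 8), against 5 (1 to 9) in the 59 cells with a chain, and summed to 803 against 2769 RPM. The erythroid list summed to 2764 RPM (4.43 to 19810.0 in single cells) against 136.4 (0 to 1181) in the cells with a chain. Mesenchymal genes summed to 3025 (1.69 to 17846) against 57.8 (0 to 1769), and leukocyte genes to 779 (0 to 5989) against 1.998 (0 to 40.6). At least 3 markers were found for the erythroid list in 3 of the 7 cells, for the mesenchymal list in 3 and for the leukocyte list in 1. Among the 12 hepatoblast markers, 3 were at 0 in all 7 cells. What these markers have to do with the absence of the chains was not tested.

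Around the *Afp* threshold, the 5 cells just inside had 22 to 224 *Afp* reads and 0 to 3 reads of each chain. The 5 cells just outside had 5 to 8 *Afp* reads, with 1 to 8 of *Fgb*.

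Outside the *Afp*-positive cells, fibrinogen was present in 5 of 587 cells. An E10.5 Lgr5-GFP+ cell of pool 2 had all 3 chains, with 989 RPM of *Fga*, 1995 of *Fgb* and 589 of *Fgg*, beside 4 *Afp* reads, 8 *Alb* reads and 6 hepatoblast markers. A second cell of this group and pool had 4736 RPM of *Fgb* and 97.9 of *Fgg*, with 2 *Afp* and 5778 *Alb* reads. The levels of these 2 cells lay within the range of the *Afp*-positive cells for each chain. The other 3 cells had 1 chain each. An E13.5 bulk cell had 131.9 RPM of *Fga*, 0 of the other chains and 9 of 10 erythroid markers, an E10.5 bulk cell had 42 *Fgg* reads and 0 of the other chains, and an E10.5 Lgr5-GFP+ cell had 11 *Fgb* reads. Of all reads of a chain, 95.4% of *Fga*, 97.04% of *Fgb* and 97.9% of *Fgg* lay in the 66 *Afp*-positive cells.

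The other 582 cells held a low level of the chains. *Fgb* was read in 32.99% of them, with at most 10 in a cell and 0.725 RPM in sum, *Fgg* had 140 reads in 83 cells and *Fga* 71 reads in 59 cells. Cells with at least 3 erythroid, mesenchymal, mesothelial, endothelial, leukocyte, megakaryocyte or muscle progenitor markers all showed reads of *Fgb*. The share with any *Fgb* read was 17.4% of 258 erythroid-marker cells and between 21.1% and 44.4% in the other 6 classes, at median depths of 1071997 to 1326254 reads, and *Fgb* stayed below 1 RPM in each. The hepatoblast list was not among these classes, although 67 of the 587 *Afp*-negative cells had at least 3 of its markers.

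These low reads followed the library indices. Each library carries an i7 and an i5 index, and cells of a pool share single indices but no index pair. *Afp*-negative cells with at most 100 *Fgb* reads were divided by whether they shared an index with a cell of the same pool that had more than 100 *Fgb* reads. Where they shared neither, 7 of 277 cells had any *Fgb* read (2.53%, 1.02 to 5.14). Where they shared one or both, 60.4% of 308 had (interval 54.7 to 65.9), and where both indices were shared, each with some such cell, 49 of 57 had (85.96%, 74.2 to 93.7). *Fgg* was read in 2.17% and 25.6% and *Fga* in 2.53% and 17.5% of the cells without and with a shared index, and *Afp* itself in 4.33% and 50%.

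The same order was found in each pool. Without a shared index, *Fgb* reads were found in 0 of 90, 1 of 15, 1 of 56, 1 of 78 and 4 of 38 cells of pools 1 to 5, and with one in 11 of 41, 84 of 98, 40 of 66, 22 of 46 and 29 of 57. The 2 sets also differ in their groups, since 45.1% of the 277 cells and 10.7% of the 308 were E13.5 bulk cells. In pool 2, all 15 cells without a shared index were E13.5 bulk cells, against 19.4% of the 98 with one. In that pool, index and group thus cannot be told apart. Median depths of the 277 and 308 cells were 1167464 and 1196856 reads. A cell with a few reads of a chain was therefore not taken as expressing it.

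**Figure D3:**
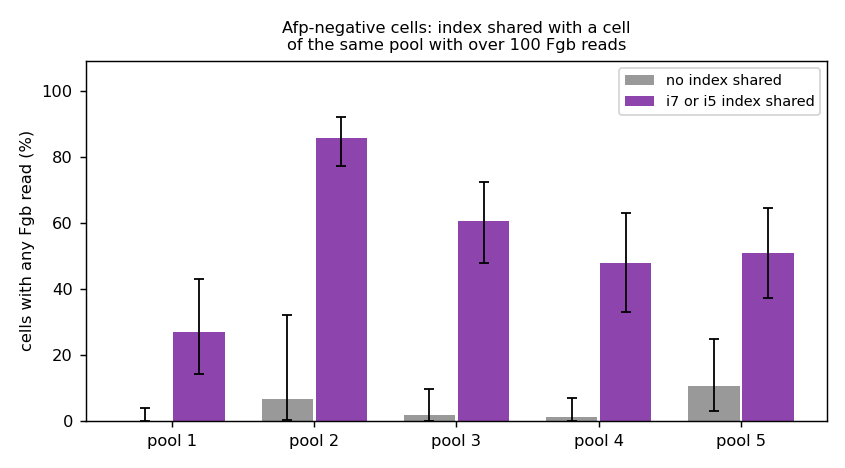
Share of *Afp*-negative cells with any *Fgb* read (y axis, percent) in library pools 1 to 5 (x axis), for cells that share no index (grey) or an i7 or i5 index (purple) with a cell of the same pool with more than 100 *Fgb* reads. Error bars are 95% exact intervals, and the purple bars reach from 26.8% to 85.7% while the grey bars stay at or below 10.53%.

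Where all 3 chains were present, their levels had an order. Compared per kb of annotated exon, the level of *Fgb* was the highest in 31 of 33 *Afp*-positive cells (93.9%, 79.8 to 99.3) and that of *Fgg* in the other 2, while *Fga* was the highest in 0. *Fga* was the lowest in 21 cells (63.6%, 45.1 to 79.6) and *Fgg* in 12. Median levels were 872 RPM per kb for *Fgb* (124.5 to 2132), 389.9 for *Fgg* (57.4 to 836) and 168.98 for *Fga* (7.37 to 878). The ranges of the 3 genes overlap between cells, so the order is one within cells.

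The ratio of *Fgb* to *Fga* was the most one-sided. Its median was 5.34-fold (2.42 on the log2 scale), and *Fgb* was above *Fga* in all 33 cells, by 0.39 to 7.94 on the log2 scale. *Fgb* exceeded *Fgg* 2.91-fold at the median, with log2 ratios of -1.87 to 4.45. *Fgg* exceeded *Fga* 1.91-fold at the median, but the log2 ratios ran from -1.45 to 6.35 and were above 0 in 21 of 33 cells, so these neighbours in the order do not differ beyond their spread. The SD of the log2 level across the 33 cells was 0.72 for *Fgb*, 0.92 for *Fgg* and 1.62 for *Fga*.

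**Figure D4:**
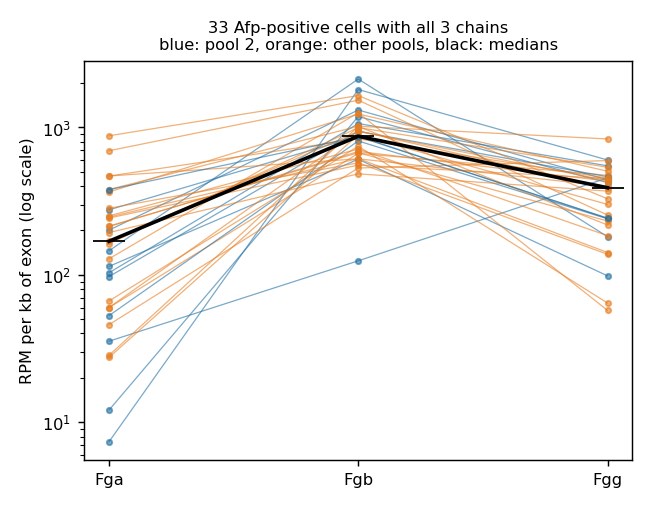
Level per kb of annotated exon (RPM per kb, log scale) of *Fga*, *Fgb* and *Fgg* in the 33 *Afp*-positive cells with all 3 chains, with 1 line for each cell (blue for pool 2, orange for the other pools) and medians in black. The middle point is the highest in 31 lines, and the *Fga* points are the most widely spread.

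With and without pool 2 the order was alike. *Fgb* was the highest in 10 of 11 cells of pool 2 and in 21 of 22 cells of the other pools, and *Fga* the lowest in 8 and 13. *Fgb* exceeded *Fga* 9.69-fold at the median in pool 2 and 3.19-fold elsewhere. The SD of the log2 level was 1.79 for *Fga*, 1.08 for *Fgb* and 0.80 for *Fgg* in pool 2, and 1.41, 0.49 and 0.99 in the other pools, so that *Fgb* varied least outside pool 2 and *Fgg* within it. The 3 bulk cells among the 33 all had the order *Fgb*, *Fga*, *Fgg*, with *Fgb* above *Fga* by 0.91 to 1.19 on the log2 scale. This order was found in 9 of the 30 Lgr5-GFP+ cells, and 19 of them had *Fgb*, *Fgg*, *Fga*.

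Across cells, the levels of the chains moved together as far as presence and absence did. Correlations are of log2(RPM + 1), are given without a test, and rest on cells that share library pools and indices. Over the 66 *Afp*-positive cells, Pearson's r was 0.59 for *Fgb* and *Fgg*, 0.47 for *Fga* and *Fgb* and 0.26 for *Fga* and *Fgg* (Spearman's rho 0.43, 0.39 and 0.21). Among the 33 cells with all 3 chains, r was -0.01, 0.08 and -0.07 in the same order. In a cell that had all 3 chains, a high level of one thus came with no visible shift in another, at an n of 33.

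**Figure D5:**
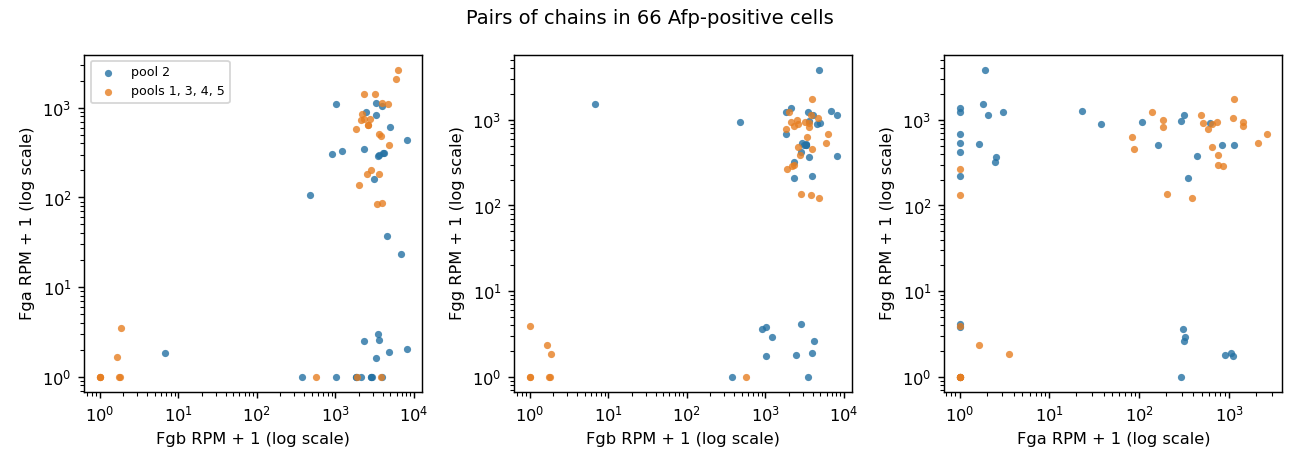
Levels of 2 chains in each of 66 *Afp*-positive cells (RPM + 1, both axes log), for *Fgb* and *Fga*, *Fgb* and *Fgg*, and *Fga* and *Fgg*, with pool 2 in blue and pools 1, 3, 4 and 5 in orange. Points lie in blocks of present and absent chains, blue points fill the blocks in which *Fga* or *Fgg* alone is absent, and no slope is visible within the block where both chains are present.

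The pools differed in this measure too. In pool 2 (34 cells, all with a chain), r was 0.12 for *Fgb* and *Fgg*, 0.18 for *Fga* and *Fgb* and -0.29 for *Fga* and *Fgg*. In the other pools (32 cells) it was 0.91, 0.78 and 0.85. Without the 7 cells that had no chain (25 cells left) it was between 0.49 and 0.64, and among the 22 cells with all 3 chains it was -0.04, 0.24 and 0.14.

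Pairs of plasma protein genes at other loci gave a measure of what unlinked genes do. Of the fixed plasma protein list, 8 genes were present in at least 50% of the *Afp*-positive cells (*Alb*, *Ttr*, *Apoa1*, *Apoa2*, *Rbp4*, *Vtn*, *Ambp* and *Serpina1b*), which makes 28 pairs. Over the 66 cells, their r had a median of 0.53 (0.16 to 0.95), beside 0.26, 0.47 and 0.59 for the chains. Over the 59 cells with at least 1 chain, the median was 0.23 (-0.16 to 0.58), beside 0.04, 0.21 and 0.26. In both sets the 3 pairs of neighbouring chains lay within the range of the 28 pairs. Over the 25 cells with a chain outside pool 2, where the chains had r of 0.49 to 0.64, the 28 pairs had a median of -0.06 (-0.29 to 0.81), and 3 of these cells lacked *Fga*, 1 of them with *Fgg* as well.

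Of 2170 genes present in at least 50% of the *Afp*-positive cells, 0 followed *Fgg* more closely than *Fgb* did. For *Fga*, 14 genes had a higher r than *Fgb*, and for *Fgb*, 18 genes had a higher r than *Fgg* and 54 a higher r than *Fga*. The pair of *Fga* and *Fgg* was less close, since 469 genes followed *Fga* more closely than *Fgg* did, and 306 followed *Fgg* more closely than *Fga* did. The genes most like the mean of the 3 chains by Pearson's r over 66 cells were the apolipoprotein genes *Apoa2* (0.76) and *Apoa1* (0.72), *Afp* (0.72), the retinol carrier *Rbp4* (0.72) and the apolipoprotein gene *Apom* (0.70). They were followed by *Serpinf2* (0.65), which encodes the plasmin inhibitor, the interleukin 1 receptor gene *Il1r1* (0.65), *Serpina6* (0.64), which encodes the corticosteroid carrier, the fatty acid binding protein gene *Fabp5* (0.64) and *Ambp* (0.62). The median over all 2170 genes was 0.14. Most of these values were far lower in pool 2 alone, at 0.67 for *Apoa2*, 0.40 for *Il1r1*, 0.38 for *Afp* and between 0.01 and 0.29 for the other 7, against 0.71 to 0.93 for the 10 genes in the other pools. The 7 cells without any chain, all outside pool 2, count in the ranks and in the values over 66 cells and over the other pools. Over the 66 cells, *Afp* had r of 0.51, 0.63 and 0.58 with *Fga*, *Fgb* and *Fgg*. Over the 59 cells with a chain it was 0.40, 0.23 and 0.38. The genes at the low end were *Npc2* (-0.35), *Tmsb10* (-0.33), *Actb* (-0.32), *Tmsb4x* (-0.28) and *Ispd* (-0.27), where *Actb* encodes beta-actin and *Tmsb10* and *Tmsb4x* actin-binding thymosins.

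Among E10.5 *Afp*-positive cells, the 2 sorts could be compared only on 55 Lgr5-GFP+ and 8 bulk cells. The lowest, median and highest *Fgb* level was 0.790, 3086 and 8170.3 RPM in Lgr5-GFP+ cells and 0, 1198 and 6271 in bulk cells. *Fgg* was at 0, 526 and 3827 RPM against 0, 145.7 and 1223, and *Fga* at 0, 200.05 and 2092 against 0, 0.331 and 2643. The sorts overlapped for each chain. The log2 ratio of the summed level, Lgr5-GFP+ over bulk, was 1.06 for *Fgb*, 1.02 for *Fgg* and -0.37 for *Fga*, in a comparison in which 39.5% of 12196 genes were at least 2-fold higher and 20.9% at least 2-fold lower. Counting only cells with a chain (54 and 5), a choice made after the data had been seen, the ratios were 0.30, 0.27 and -1.13, and without pool 2 (23 and 6 cells) they were 1.41, 2.36 and 0.41. The direction for *Fga* thus turned with the pools, and the ratios of *Fgb* and *Fgg* were smaller without the 1 Lgr5-GFP+ and 3 bulk cells that had no chain. No pool held 5 *Afp*-positive cells of both sorts, so no ratio within a pool is given.

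By *Lgr5* reads, the 54 E10.5 Lgr5-GFP+ cells with *Afp* and a chain formed 3 sets, with more than 10 *Lgr5* reads in 23 cells, 1 to 10 in 16 and 0 in 15. Median *Fgb* was 3802 RPM (1846 to 8170.3), 3188 (894 to 6893) and 2326 (5.87 to 8122) in these sets, and the ranges overlapped. *Fga* was present in 18, 10 and 9 cells, and *Fgg* in 21, 14 and 9. Pool 2 gave 10, 11 and 11 of the cells.

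Against *Afp*-negative E10.5 cells, the 63 *Afp*-positive E10.5 cells had a 133.05-fold higher summed level of *Fga* (383 and 2.88 RPM), a 184.4-fold higher level of *Fgb* (2899 and 15.7) and a 263-fold higher level of *Fgg* (573 and 2.18). The *Afp*-negative levels rest on few cells. Over both stages, 5 *Afp*-negative cells held 1383 of 1454 *Fga* reads, 6497 of 7002 *Fgb* reads and 844 of 984 *Fgg* reads. Between the 2 sets of E10.5 cells, 12% of 14267 genes were at least 2-fold higher and 35.2% at least 2-fold lower in *Afp*-positive cells, and the median log2 ratio of all genes was -0.39. The genes that work with fibrinogen were counted against that background, with a gene scanned where it reached 1 RPM over these E10.5 cells. A gene near 0 in one of the 2 sets passed only through the other. Its direction in the counts below was thus set by the filter. The sources used here do not give how reads on overlapping gene models were counted, so a gene listed at 0 in all cells below is not read as lacking expression.

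Genes of the coagulation cascade were divided. Of 9 scanned coagulation factors, 5 were at least 2-fold higher and 3 at least 2-fold lower. *F2*, which encodes prothrombin, the precursor of the enzyme that cleaves fibrinogen, was at 149.7 RPM in *Afp*-positive and 4.53 in *Afp*-negative cells. *F10* (144.6 and 16.1), *F12* (79.4 and 0.0807) and the kininogen gene *Kng1* (63.3 and 0.0323) were higher as well, and *F7* (8.09 and 0.00230) was present in 5 *Afp*-positive cells. Tissue factor (*F3*, 0.252 and 19.2), *F8* (0.0379 and 2.996) and *Vwf* (2.37 and 12.6), which are known from mesenchymal or endothelial cells, were lower. The subunit genes of factor XIII, which cross-links fibrin, *F13a1* and *F13b*, and the genes *F9*, *F11* and *Klkb1* did not reach 1 RPM over the E10.5 cells.

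The genes that limit or dissolve a clot showed the same division. Of 5 scanned anticoagulant genes, 3 were higher, namely *Serpinc1* for antithrombin (316 and 4.84 RPM), *Proc* for protein C (36.3 and 0.0507) and *Serpina10* (62.2 and 0.0415), while *Tfpi* was lower (28.1 and 59.3), *Pros1* lay within 2-fold and *Serpind1* was listed at 0 in all cells. Among 5 scanned genes of fibrinolysis, *Plg* for plasminogen (92.7 and 0.505), *Serpinf2* (927 and 4.76) and *Cpb2* (187.6 and 5.41) were higher, and the activator gene *Plat* (24.3 and 82.3) and the urokinase receptor gene *Plaur* (7.37 and 17.5) were lower.

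Plasma protein genes at other loci were all higher where scanned, 10 of 10, with a median log2 ratio of 7.42. They include *Apoa2* (7044 RPM in *Afp*-positive cells), *Rbp4* (6349), *Ambp* (3333) and *Alb* (1423). *Ahsg* (6.56 and 0.0254 RPM) was present in only 4 *Afp*-positive cells. *Trf* was listed at 0 in all cells, and *Fetub* stayed below 1 RPM. The acute phase list was mixed, with 3 of 6 scanned genes higher (*Hpx*, 131.1 and 0.124 RPM, *Apcs*, 13.6 and 0.00230, and *Itih4*, 5.77 and 0.373) and 2 lower (*Saa1*, 0.0631 and 14.8, and *Saa2*, 0.0379 and 10.3). *Apcs* was present in 3 *Afp*-positive cells and *Itih4* in 4. *Hp* and *Orm1*, which like the chains respond to interleukin 6 in the adult liver, did not reach 1 RPM over the E10.5 cells.

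Of 8 scanned genes among known regulators of fibrinogen genes, 5 were higher, namely *Hnf4a* (151.3 and 0.454 RPM), *Foxa3* (139.9 and 0.267), *Foxa2* (119.6 and 3.23), *Cebpa* (81.2 and 4.24) and *Foxa1* (40.05 and 3.57). *Cebpd* was lower (7.42 and 21.9), and *Stat3* and *Nr3c1* lay within 2-fold. Over all 66 *Afp*-positive cells, 7 of them without any chain, r with the mean of the chains was 0.52 for *Hnf4a* (0.18 in pool 2) and 0.46 for *Foxa3* (-0.02 in pool 2). In the interleukin 6 pathway, 1 of 5 scanned genes was higher, the receptor gene *Il6ra* (5.64 and 1.44 RPM), 1 was lower (*Jak2*, 9.98 and 38.4) and 3 lay within 2-fold, among them *Il6st* (26.01 and 27.2) and *Socs3* (28.8 and 27.3).

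The folding and export machinery of the endoplasmic reticulum differed little. Of 11 genes, all scanned, 10 lay within 2-fold with a median log2 ratio of 0.50 over the list, and *Erp44* was higher (277 and 133.7 RPM). The chaperone gene *Hspa5* was at 2342 and 1655 RPM. The export receptor genes *Lman1* (291 and 167.1) and *Mcfd2* (138.5 and 134.02) were read in both sets of cells.

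Relatives and receptors of fibrinogen did not follow the chains. Of 5 scanned genes whose proteins carry a fibrinogen-like domain, 0 were higher and 3 were lower, namely *Tnc* (1.19 and 101.06 RPM), *Angpt1* (0.669 and 34.3) and *Mfap4* (5.31 and 157.1), and *Angptl4* and *Angptl6* lay within 2-fold. *Fgl2*, *Angptl2*, *Angpt2* and *Fcna* were listed at 0 in all cells, and *Fgl1*, a gene of adult hepatocytes, had 0 reads in the *Afp*-positive E10.5 cells. Of 8 scanned genes of fibrinogen-binding receptors, 1 was higher (*Icam1*, 26.7 and 5.03 RPM) and 5 were lower, among them the platelet integrin genes *Itga2b* (0.404 and 54.6) and *Itgb3* (4.23 and 31.4).

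The protein-coding genes around the 3 chains did not share their level where they were scanned. Within 500 kb of the span lie *Npy2r*, *Rbm46*, *Lrat*, *Plrg1* and *Dchs2*. *Plrg1*, a splicing factor gene that starts 5.66 kb beyond *Fgb*, was at 81.4 RPM in *Afp*-positive and 151.7 in *Afp*-negative E10.5 cells, a log2 ratio of -0.90, and its r with the mean of the chains was 0.17. *Rbm46*, at 131.2 kb, was at 2.75 and 19.3 RPM and *Dchs2*, at 78.1 kb, at 0.581 and 3.52. *Npy2r* had 0 reads in *Afp*-positive cells, and *Lrat* was listed at 0 in all cells. Of the 5 genes, 3 were scanned, and 0 of these were at least 2-fold higher and 2 at least 2-fold lower in *Afp*-positive cells. Among all scanned genes 12% were higher and 35.2% lower, and 3 genes are too few to set against these shares.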

How the data were processed

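Single cells sorted from embryonic mouse livers at 2 stages were sequenced with an adapted Smart-seq2 protocol, with single-end reads and no molecular identifiers. The authors aligned reads to GRCm38.p6 with STAR (2.6.0c) on the Ensembl annotation and counted uniquely aligned reads with featureCounts of Subread (1.6.2), and the deposited counts are whole reads per gene without normalisation. The authors kept cells within limits of mitochondrial and spike-in reads, of total reads and of detected genes. A second deposited table of normalised values for variable genes was not used.

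Group, pool and indices of each cell were taken from the labels. Every cell was used, 0 columns were left out and 0 columns were identical. Genes were named and measured with the GENCODE annotation of the same build. RPM is reads per 1000000 reads on all genes, and levels are compared between genes only per kb of the union of exons. A gene was present in a cell at more than 10 reads. Correlations used a pseudocount of 1 RPM. In comparisons of summed levels, genes reaching 1 RPM over both sets were scanned, a 2-fold difference was counted, and fewer than 3 reads were set to 3. Alternatives were other thresholds, thinning to 100000 reads, size factors from scran (1.30.0), RPM without globins, another gene length, other pseudocounts and each pool left out. Analyses used Python (3.11.15) with pandas (2.3.3), NumPy (2.4.6) and SciPy (1.17.1), and were tested on simulated data. Cells were sorted singly, and no doublet caller was run.

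The 3 genes and all lists were chosen with earlier results of these data known. Some genes of the lists are not reported here and were left out of the counts. Named genes are the chains and *Afp*, the genes of the lists, protein-coding genes within 500 kb, and the 10 most and 5 least correlated genes. The comparison of pool 2 with the other pools, the set of cells with a chain and the pairs of plasma protein genes were chosen after values had been seen.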

Additional observations from a re-analysis of the deposited data

How the results depend on the processing

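Of 220 values under alternative settings for 19 results, 19 moved beyond the spread of the main value, 5 changed sign and the others stayed within it. A threshold of any read for a chain raised the share with all 3 chains to 23.7% of E10.5 Lgr5-GFP+, 4.93% of E10.5 bulk and 72.7% of *Afp*-positive cells. That last share was 14.5% with any *Afp* read, 32.4% in pools 1 and 2 alone, 72.4% in pools 3, 4 and 5 alone and 68.8% without pool 2. The correlation of *Fga* and *Fgg* changed sign in pools 1 and 2 alone (-0.14) and rose to 0.85 without pool 2. The log2 ratio of *Fga* between sorts in *Afp*-positive cells changed sign with any *Afp* read (1.26), in pools 3, 4 and 5 alone (0.21), without pool 2 (0.41) and without pool 3 (0.029), and was -1.51 with more than 100 *Alb* reads in place of *Afp*. With any *Afp* read, the ratios were 2.66 for *Fgb* and 2.61 for *Fgg*, and without pool 2 that of *Fgg* was 2.36. In *Afp*-negative cells, *Fgb* was at 36.5 RPM when cells were chosen by *Alb*. The share of them with any *Fgb* read, 33.2%, became 20.8% with any *Afp* read, 8.14% after thinning, 39.8% in pools 1 and 2 alone, 28.4% in pools 3, 4 and 5 alone, 40.4% without pool 1 and 22.9% without pool 2. The causes of these shifts were not tested. The number of cells limits the shares at E13.5, where 0 bulk and 0 Lgr5-GFP+ cells with all 3 leave room for shares of up to 1.89% and 3.75% at 3 counts (2.29% and 4.51% by the exact intervals). Leaving out pool 2 for the share of cells with each chain was chosen after seeing the data. No paired analysis was possible because the labels give no replicate that links cells of different groups and no result comes from a test; values within pools stand beside the results.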
